A study of Homo sapiens with 6 samples.

Results

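The BCL2 family regulators described here are a set of 10 apoptosis regulators chosen by name, namely BCL2, BCL2L1, MCL1, BCL2L11, BBC3, PMAIP1, BAX, BAK1, BIK and BMF. They were found by symbol among the 27672 genes of the deposited table, where 10 of 10 were present, and 10 of 10 also passed the filter on low counts that left 15517 genes for testing. RNA-seq of polyadenylated RNA was carried out on 3 libraries of hESCs at day 0 and 3 libraries of neuromesodermal progenitor-like (NMP-L) cells at day 3, all from the H9 human embryonic stem cell line. The hESCs were untreated and, per the labels, grew on fibronectin in DEF medium that contained bFGF at 30 ng/ml and Noggin at 10 ng/ml. The NMP-L cells, also per the labels, had been moved for 3 days to N2/B27 medium with bFGF at 20 ng/ml and CHIR99021 at 3 µM. CHIR99021 is an inhibitor of GSK3 that activates Wnt signalling. The paper's methods give other conditions for its cells, with TESR medium on Geltrex for hESCs. They also add the BMP and TGFβ inhibitors Noggin and SB431542 around day 3, and the labels were followed here. The groups therefore differed in medium, factors and time in culture together, and these cannot be told apart. Both groups came from 1 cell line, and the labels call the 3 libraries of each group biological replicates without saying whether they were separate cultures, so p-values measure the spread between these libraries.

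BCL2 family proteins control the release of cytochrome c from mitochondria, the step that starts the intrinsic pathway of apoptosis. Survival proteins (BCL2, BCL-XL from BCL2L1, MCL1) hold the pore-forming effectors BAX and BAK in check, and BH3-only proteins (BIM from BCL2L11, PUMA from BBC3, NOXA from PMAIP1, BIK, BMF) bind the survival proteins or activate the effectors. Human pluripotent stem cells are known to enter apoptosis readily and to depend on MCL1 and BCL-XL for survival. NOXA is known as a selective partner of MCL1.

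The libraries held between 19454543 and 23036426 expected counts, so that 3 counts, taken as the detection floor, corresponded to between 0.126 and 0.16 CPM (counts scaled to the depth of the library). The hESC markers were lower in NMP-L cells for 6 of 6 genes, with a log2 fold change of −2.59 for NANOG and −0.92 for POU5F1, whose counts were fractional, which marks reads shared with similar sequences. T (brachyury), which defines the NMP state together with SOX2, had 0, 0 and 2 counts in hESCs against 537, 293 and 629 in NMP-L cells, whereas SOX2 did not pass the test (log2 fold change 0.06, edgeR adjusted p = 0.53). Of the 7 tested NMP markers 5 were higher, and FGF17 went the other way (log2 fold change −2.89, edgeR adjusted p = 5.4e-06), as did the untested FGF8 with 4, 11 and 7 counts in hESCs against 3, 2 and 1. Among markers of other cell types, FOXA2 (endoderm and midline) had 0, 5 and 2 counts in hESCs and 473, 264 and 535 in NMP-L cells, and the summed level of the 8 endoderm markers went from between 2.93 and 4.12 CPM to between 15.8 and 26.8 CPM, with 6 of the 8 too low to be tested. FOXA2 made up most of that rise, going from a mean of 0.12 to 18.75 CPM, while SOX17 had at most 1 count in any library and AFP went from 4, 11 and 15 counts to 0 in each NMP-L library. The summed level of the markers went from between 9.66 and 12.8 CPM to between 3.83 and 4.88 CPM for paraxial mesoderm, from between 26.0 and 30.8 to between 4.43 and 4.88 for neural crest, and from between 247.0 and 277.0 to between 140.0 and 163.0 for neurons and neural progenitors. In the neural crest list FOXD3 held most of the sum (21.16 against 0.73 CPM), and SNAI2 was higher (log2 fold change 2.34, edgeR adjusted p = 0.0018). In the neuron list the counts of TUBB3 were fractional in 6 libraries. Whether cells of these other types were present, and their part in the values of the BCL2 family, was not tested.

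Of the 10 family members, 7 fell and 3 rose in NMP-L cells, in a table where 55.8% of all tested genes passed the threshold (29.1% higher and 26.7% lower). With so many genes called, a call by itself does not set a member apart, and the sizes and directions are given below. All 5 BH3-only members were lower, led by PMAIP1 (NOXA) at 29.1% of its hESC level, BIK at 31.9% and BMF at 47.2%. Of the survival genes, MCL1 fell to 51.8% of its hESC level, while BCL2 and BCL2L1 were higher, and of the effectors BAX was lower and BAK1 slightly higher. The median log2 fold change of the 10 members was −0.47, beside −0.18 for the 10 other tested BCL2 family genes and 0.03 over all tested genes. The members were chosen with earlier results of these data known, so these medians are descriptions. The direction of the smaller changes depended on how the libraries were scaled: BCL2L11, BBC3 and BAX turned slightly higher when counts were set relative to GAPDH, and BAK1 lay at −0.0041 on the log2 scale relative to HPRT1. These are bulk samples, in which fewer cells expressing a gene and less RNA of it per cell cannot be told apart.

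**Figure D1:**
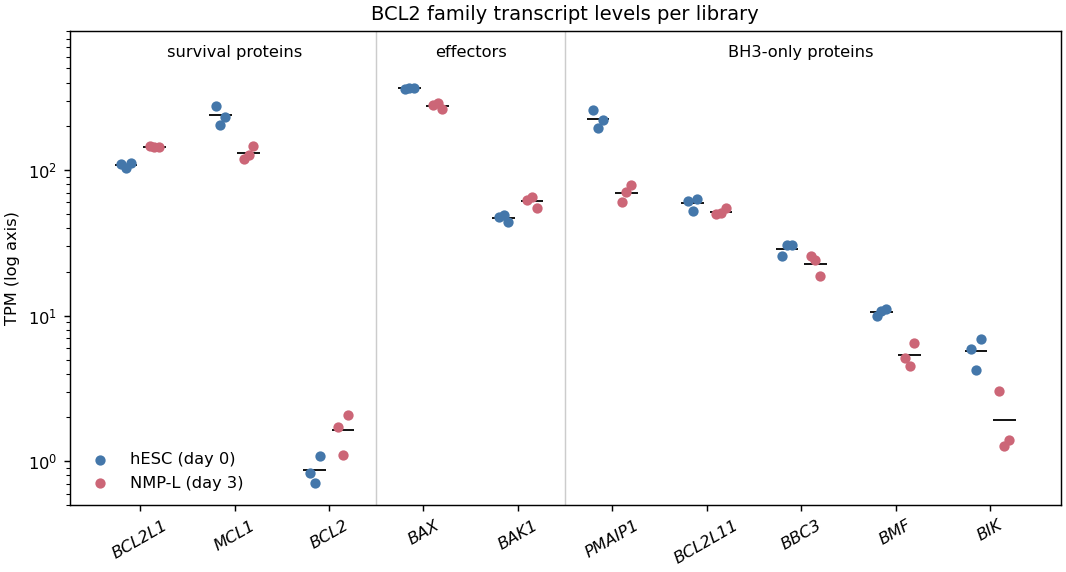
Transcript level (TPM, length-scaled reads relative to the library total, log axis) of each BCL2 family member in each library, with blue points for the 3 hESC and red points for the 3 NMP-L libraries and a line at the mean. PMAIP1 lay between 193.4 and 259.9 TPM in hESCs and between 60.85 and 78.72 in NMP-L cells, and BCL2 was at or below 2.08 TPM in every library.

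Per length of transcript, BAX was the highest member in both conditions and BCL2 the lowest in hESCs. Taken as TPM, which sets each gene's reads relative to the length of its transcripts, the order in hESCs was BAX, MCL1, PMAIP1, BCL2L1, BCL2L11, BAK1, BBC3, BMF, BIK and BCL2. The ranges over libraries of these neighbours overlapped for MCL1 and PMAIP1 alone. In NMP-L cells BCL2L1 and MCL1 stood next to each other with overlapping ranges (143.2 to 146.5 and 119.9 to 146.9 TPM). PMAIP1 had moved down beside BAK1 and BCL2L11, where PMAIP1 overlapped BAK1 and BAK1 met BCL2L11, and BIK overlapped BCL2 at the bottom. The TPM level of BAX rests on short assumed transcripts, as it received between 0.222 and 0.231 times as many counts per TPM as the median gene of a library, so its lead over MCL1 is on the TPM scale and not in counts.

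Among the survival genes, MCL1, whose short-lived protein binds NOXA and BIM, was the one that fell. It lies at chr1:150533371-150552214 on the minus strand of GRCh37, the build of the deposited table. MCL1 received 10059, 8072 and 8852 counts in hESC libraries 1, 2 and 3, and 5102, 5120 and 6219 in NMP-L libraries 1, 2 and 3. The lowest hESC library stood well above the highest NMP-L library, although the NMP-L libraries were the deeper ones. Scaled for depth, MCL1 went from 470.7 ± 61.7 to 244.6 ± 16.7 CPM (SD, n = 3 each), 1.93-fold lower, with a log2 fold change of −0.95 (SE 0.10, edgeR quasi-likelihood test, Benjamini-Hochberg adjusted p = 8.3e-06). Exons of MCL1 overlap the antisense gene ADAMTSL4, which held between 232 and 439 counts, and the strand setting of the counting is not given in the sources used here, so reads in the overlap cannot be told apart.

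BCL2L1, which encodes BCL-XL, moved the other way. It lies at chr20:30252255-30311792 on the minus strand, and its exons overlap the antisense RNA ABALON, which had no more than 36 counts. The hESC libraries had 132.5, 128.8 and 135.1 CPM of BCL2L1, and the NMP-L libraries 171.4, 167.0 and 159.3. Every NMP-L library was above every hESC library, by a margin larger than the spread within either group. The increase was 1.25-fold (log2 fold change 0.32, SE 0.07, edgeR adjusted p = 0.0030), and it was lost relative to HPRT1 (log2 fold change 0.03, edgeR adjusted p = 0.92).

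BCL2 itself, the founding survival gene of the family, was near the lower limit of the tested genes. It spans chr18:60790579-60987361 on the minus strand. Its counts were 24, 21 and 31 in hESCs and 79, 71 and 91 in NMP-L cells, or 1.33 ± 0.272 against 3.58 ± 0.227 CPM (SD, n = 3 each). The groups were far apart for so few reads, and the log2 fold change of 1.43 (SE 0.21, edgeR adjusted p = 1.5e-04) was higher than that of all but 5.34% of tested genes. In TPM the change of BCL2 was smaller, with 0.83, 0.71 and 1.09 TPM in hESCs and 1.73, 1.1 and 2.08 in NMP-L cells, and the second NMP-L library was level with the highest hESC library. BCL2 received between 0.981 and 1.03 times as many counts per TPM as the median gene in hESCs and between 1.34 and 2.12 times as many in NMP-L cells, a shift in the length assigned to it that was exceeded by 0.0528% of 13257 genes. Whether the isoforms of BCL2 differed or the estimate was unstable at these counts was not tested.

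With MCL1 lower and BCL2L1 higher, their balance within a library changed. The ratio of MCL1 to BCL2L1, in TPM, was 2.51, 1.97 and 2.06 in hESCs, and 0.818, 0.89 and 1.02 after differentiation. MCL1 was thus the leading survival transcript in every hESC library and close to level with BCL2L1 in the NMP-L libraries on the TPM scale, below it in libraries 1 and 2 and just above it in library 3. In counts, not scaled by length, MCL1 was above BCL2L1 in every library. A ratio within a library does not depend on how libraries are scaled, and its mean went from 2.18 ± 0.288 to 0.91 ± 0.104 (SD, n = 3 each).

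**Figure D2:**
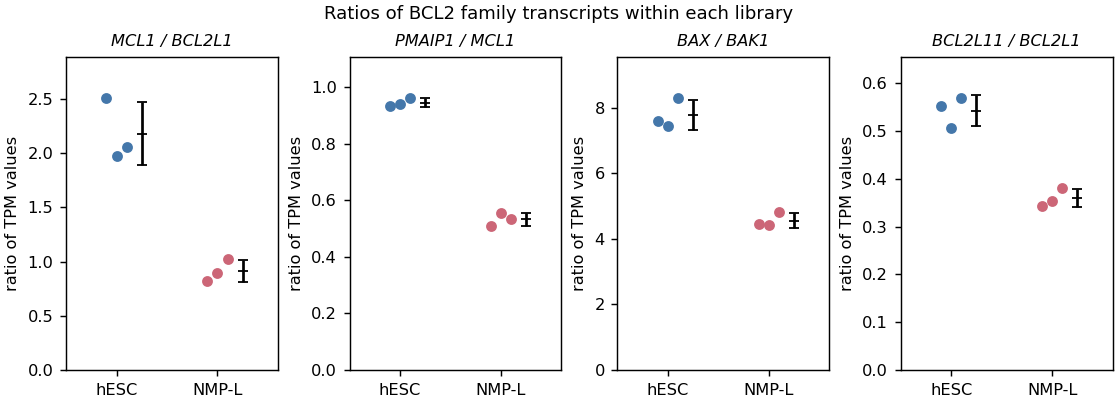
Ratios of TPM values of 2 members within each library, with 1 point per library in hESCs (blue) and NMP-L cells (red) and the mean with its SD beside them. The groups do not overlap in any of the 4 panels, and the MCL1 to BCL2L1 ratio goes from between 1.97 and 2.51 to between 0.818 and 1.02.

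The effectors BAX and BAK1, whose proteins oligomerise to open the outer mitochondrial membrane, moved in opposite directions under the main scaling. BAX lies at chr19:49458072-49465055 on the plus strand and shares no exon with another gene. It had 122.8, 130.2 and 123.8 CPM in hESCs and 91.0, 93.41 and 82.66 in NMP-L cells. The hESC libraries lay close together, and all of them above the NMP-L libraries. BAX was 1.41-fold lower (log2 fold change −0.50, SE 0.08, edgeR adjusted p = 3.0e-04), a direction that turned relative to GAPDH (0.05, edgeR adjusted p = 0.61).

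BAK1 lies at chr6:33540324-33548070 on the minus strand. Its level was 49.29, 52.61 and 46.38 CPM in hESCs, against 62.91, 65.97 and 52.03 in NMP-L cells. It was the member whose CPM ranges overlapped, as the third NMP-L library lay just under the second hESC library, although in TPM the groups were apart (44.26 to 48.97 against 54.63 to 65.58). The 1.22-fold increase was the weakest call of the 10 (log2 fold change 0.28, SE 0.11, edgeR adjusted p = 0.040, and p = 0.2 in a two-sided exact permutation test). It passed the threshold under 8 of 17 alternatives, was lost without hESC library 1 or 3 or NMP-L library 1 or 2 (adjusted p between 0.074 and 0.17), and turned to −0.0041 relative to HPRT1.

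The CPM of the other 9 members did not overlap between the groups, a property shared by 61.6% of tested genes, and each of these 9 had the smallest p that an exact permutation test of 3 against 3 libraries allows, 0.1. Within a library, the ratio of BAX to BAK1 in TPM was 7.61, 7.44 and 8.3 in hESCs and 4.44, 4.42 and 4.81 in NMP-L cells. BAX therefore remained the more abundant effector transcript on the TPM scale in every library, by a smaller margin in NMP-L cells.

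PMAIP1, which encodes NOXA, had the largest change of the 10 under the main scaling, although BCL2 changed more relative to GAPDH (1.99 against −1.22) and BIK more without NMP-L library 1 (−2.18 against −1.70). It lies at chr18:57567228-57571537 on the plus strand and shares no exon with another gene. The hESC libraries held 4424, 3552 and 3931 counts of PMAIP1, and the NMP-L libraries 1195, 1308 and 1564. The fall was many times the spread within either group. The level went from 207.7 ± 26.96 to 60.5 ± 6.35 CPM (SD, n = 3 each), 3.44-fold lower, with a log2 fold change of −1.78 (SE 0.11, edgeR adjusted p = 1.5e-07), and 3.53% of tested genes had a lower log2 fold change. It stayed past the threshold under 17 of 17 alternatives, with log2 fold changes between −2.08 and −1.22. PMAIP1 also fell relative to MCL1, the partner of its protein: the TPM ratio was 0.935, 0.941 and 0.963 in hESCs and 0.508, 0.554 and 0.536 in NMP-L cells. Near-equal transcript levels of the pair in hESCs gave way to an excess of MCL1 in NMP-L cells on the TPM scale.

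The genes whose log2 CPM followed PMAIP1 most closely over the 6 libraries were IVNS1ABP (Pearson r = 0.9994), LAPTM4B (0.9993) and MGME1 (0.9992). These are descriptions over 6 libraries of 2 conditions, and 2670 tested genes had a correlation over 0.9 with PMAIP1.

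BIK, which encodes a BH3-only protein located mainly at the endoplasmic reticulum, was the least abundant BH3-only member. It lies at chr22:43506756-43525718 on the plus strand. It had 47, 36 and 57 counts in hESCs and 28, 11 and 13 in NMP-L cells. Every NMP-L library was below every hESC library, with NMP-L library 1 nearest to them. BIK was 3.14-fold lower (log2 fold change −1.65, SE 0.34, edgeR adjusted p = 0.0016), with the widest error of the 10 members.

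BMF, whose protein is held at the cytoskeleton until it is released, lies at chr15:40380091-40401093 on the minus strand. Its level was 22.19, 24.38 and 25.28 CPM in hESCs, against 11.01, 9.86 and 13.08 in NMP-L cells. The groups were separated by more than the spread within them. BMF was 2.12-fold lower (log2 fold change −1.08, SE 0.13, edgeR adjusted p = 2.1e-05). Exons of BMF overlap the antisense RNA BMF-AS1, which was not analysed here.

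BCL2L11 encodes BIM, a BH3-only protein that binds all survival members. On the TPM scale it was the second most abundant BH3-only transcript, and it changed least among them under the main scaling. In CPM, BCL2L11 was above PMAIP1 in NMP-L cells (means of 110.7 and 60.52). It lies at chr2:111876955-111926021 on the plus strand. It had 148.8, 123.9 and 147.5 CPM in hESCs and 107.0, 110.8 and 114.2 in NMP-L cells. The second hESC library was nearer to the NMP-L libraries than to the other hESC libraries. BCL2L11 was 1.27-fold lower (log2 fold change −0.34, SE 0.09, edgeR adjusted p = 0.0062), a direction that turned relative to GAPDH (0.22), and the call was lost in limma on TPM (log2 fold change −0.19, adjusted p = 0.097 with 0.1 added). Its exons overlap the antisense RNA MIR4435-2HG, which had between 248.4 and 273.2 counts in hESCs and between 573.3 and 665.6 in NMP-L cells. How many reads of either gene came from the other was not tested.

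BBC3, which encodes PUMA, lies at chr19:47724079-47736023 on the minus strand. Its level was 18.88, 22.74 and 22.25 CPM in hESCs, against 18.12, 16.53 and 12.45 in NMP-L cells. The first libraries of the 2 groups were almost level, and the third NMP-L library was the lowest. BBC3 was 1.36-fold lower (log2 fold change −0.44, SE 0.15, edgeR adjusted p = 0.022), and the call was lost without hESC library 2, hESC library 3 or NMP-L library 3 (adjusted p between 0.063 and 0.077), while the direction turned relative to GAPDH (0.10).

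**Figure D3:**
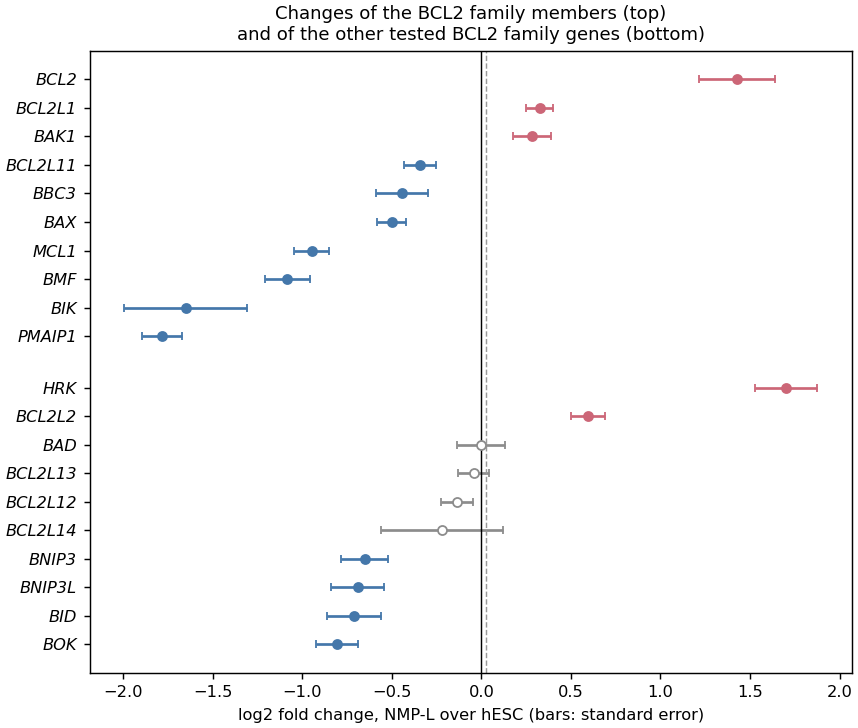
Log2 fold changes (NMP-L over hESC, edgeR) with standard errors of the 10 members (top) and of the 10 tested other BCL2 family genes (bottom), in red where higher and blue where lower at an adjusted p under 0.05, open where not, with a dashed line at the median of all tested genes. The 5 BH3-only members lie between −1.78 and −0.34, where BBC3 and BCL2L11 turn positive relative to GAPDH, and the BH3-only gene HRK lies at 1.70.

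Summed within roles, the BH3-only transcripts were the group whose share of the family total fell, with PMAIP1 carrying that fall. Together the 10 members made up 1162.0, 1015.0 and 1091.0 TPM in hESCs, against 754.9, 778.6 and 769.9 TPM in NMP-L cells. BH3-only genes took between 28.7% and 31.2% of that sum in hESCs and between 19.2% and 20.8% in NMP-L cells. The large fall was that of PMAIP1, which went from between 19.1% and 22.4% to between 8.06% and 10.2%. BIK and BMF, at or below 1.05% each, also lost share. BCL2L11 gained share, from between 5.2% and 5.85% to between 6.52% and 7.1%, and the shares of BBC3 overlapped (2.23% to 3.01% and 2.44% to 3.39%). The share of the survival genes went from between 30.6% and 33.5% to between 34.9% and 38.0%, and that of the effectors from between 35.3% and 40.7% to between 41.2% and 45.7%. The sums themselves were lower in NMP-L cells, going from 348.1 ± 39.6 to 277.5 ± 13.13 TPM for survival genes (SD, n = 3 each). For effectors they went from 411.6 ± 1.637 to 338.3 ± 19.35 TPM, so both shares rose within a smaller total. The shares, unlike the sums, do not depend on the scaling of the libraries. None of the 3 groups of genes had overlapping shares between hESCs and NMP-L cells. Shares of a common total are linked, however, so the loss of share by PMAIP1 by itself raises the shares of the other genes. The rises of the survival and effector shares are therefore not separate results, and shares without PMAIP1 were not calculated here. The ratio of BCL2L11 (BIM) to BCL2L1 (BCL-XL), also free of the scaling, was 0.551, 0.507 and 0.569 in hESCs and 0.343, 0.354 and 0.381 in NMP-L cells.

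**Figure D4:**
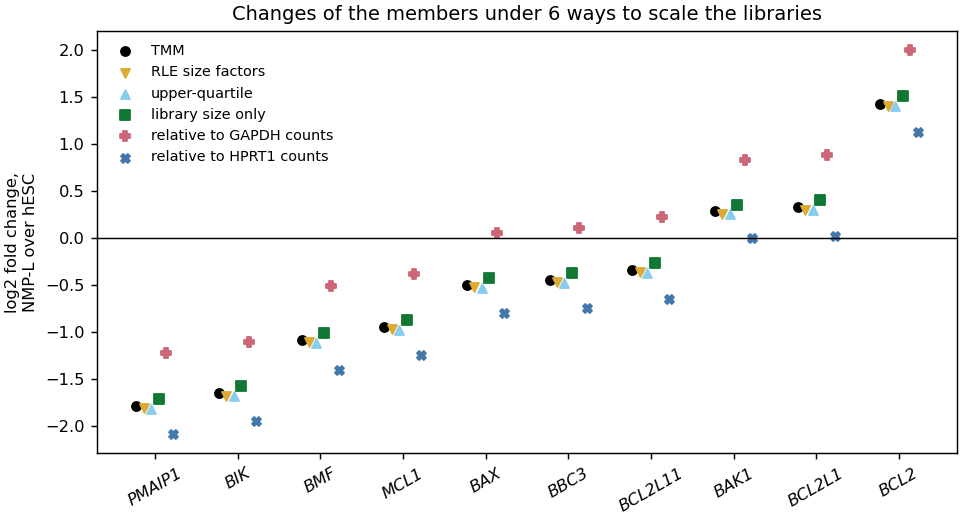
Log2 fold change of each member (NMP-L over hESC) under 6 ways to scale the libraries, by TMM, RLE or upper-quartile factors, by library size, and relative to the counts of GAPDH or HPRT1. The points of a member move up or down together, so that PMAIP1, BIK, BMF and MCL1 stay below 0 and BCL2 above 0 under each scaling, while BAX, BBC3 and BCL2L11 cross 0 relative to GAPDH and BAK1 relative to HPRT1.

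Setting counts relative to GAPDH raised the median log2 fold change of all tested genes by 0.56, and setting them relative to HPRT1 lowered it by 0.30. The share of calls that were higher in NMP-L cells was 52.1% with TMM factors, 87.5% relative to GAPDH and 25.3% relative to HPRT1. Against those shifts, PMAIP1 (−1.22 relative to GAPDH, its smallest fall) and BCL2 kept their directions. Under TMM the members split into 3 higher and 7 lower, relative to GAPDH into 3 higher and 4 lower, and relative to HPRT1 into 1 higher and 7 lower.

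The other genes of the family did not follow the chosen BH3-only members as a whole. Of 13 further BCL2 family genes, 10 were tested, of which 2 rose, 4 fell and 4 did not pass, where 29.1% of all tested genes were higher and 26.7% lower. The split was 5 higher and 1 lower relative to GAPDH, and 1 higher and 5 lower relative to HPRT1. HRK, a BH3-only gene best known from neurons, had 33, 42 and 51 counts in hESCs and 161, 157 and 162 in NMP-L cells. All NMP-L libraries were clearly higher, by 3.25-fold (log2 fold change 1.70, SE 0.17, edgeR adjusted p = 8.1e-06), and the call was kept under 17 of 17 alternatives. Thus BH3-only genes changed in both directions, with BID, which links death receptors to mitochondria, lower by 1.64-fold (log2 fold change −0.71, SE 0.15, edgeR adjusted p = 0.0019). The BH3-only gene BAD was among those that did not pass, with means of 8.97 CPM in hESCs and 8.98 in NMP-L cells (edgeR adjusted p = 0.99). BCL2L2, which encodes the survival protein BCL-w, was 1.51-fold higher (log2 fold change 0.60), but its counts were fractional in 6 of 6 libraries, which marks reads shared with other transcripts, and its value is uncertain. BOK, an effector-like gene, had a log2 fold change of −0.81, and the mitophagy receptors BNIP3 and BNIP3L had −0.65 and −0.69. The calls of BID, BNIP3 and BNIP3L were lost relative to GAPDH and that of BCL2L2 relative to HPRT1, with no change of direction.

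Downstream of the mitochondrial step, 5 of 11 tested apoptosome and caspase genes were higher and 1 was lower, where 29.1% of all tested genes were higher and 26.7% lower. The split was 3 to 4 higher and 1 lower when single libraries were left out, 9 higher and 0 lower relative to GAPDH and 1 higher and 2 lower relative to HPRT1. CASP9, the initiator caspase of the intrinsic pathway, had 336, 371 and 332 counts in hESCs and 929, 927 and 842 in NMP-L cells. It was 2.23-fold higher, outside the spread of either group and under each scaling (log2 fold change 1.16, SE 0.11, edgeR adjusted p = 4.9e-06). The executioner caspase gene CASP6 had a log2 fold change of 0.71 and CYCS (cytochrome c) 0.52, and both calls were lost relative to HPRT1. APAF1, the scaffold of the apoptosome, had a log2 fold change of 0.32 (SE 0.11, edgeR adjusted p = 0.024), a call lost relative to HPRT1 and without hESC library 2 or 3 or NMP-L library 1 or 3. DFFB, the nuclease that cuts DNA in apoptotic cells, was lower by 0.52 on the log2 scale, a fall that vanished relative to GAPDH (0.03). Among 4 tested caspase inhibitors XIAP was higher (0.48, a call lost relative to HPRT1) and BIRC5 (survivin) lower (−0.31, turning to 0.25 relative to GAPDH).

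Of the 8 partners of the family at the mitochondrion and cytoskeleton, 1 was higher and 1 lower, namely the channel gene VDAC3 (log2 fold change 0.38) and the phosphatase gene PGAM5 (−0.23, turning to 0.32 relative to GAPDH). The call of VDAC3 was lost relative to HPRT1, and that of PGAM5 (edgeR adjusted p = 0.036) with library-size scaling, in limma on TPM, with the replicate block and without hESC library 2 or 3 or NMP-L library 1 or 3. In the death receptor branch, 4 of 10 tested genes were higher and 2 lower, against 7 and 0 relative to GAPDH and 0 and 2 relative to HPRT1. Beside both lists, 29.1% of all tested genes were higher and 26.7% lower. The receptors TNFRSF10A and FAS had log2 fold changes of 0.57 and 0.47, CASP8 and its inhibitor CFLAR 0.46 and 0.45, and the adaptor FADD −0.52 (0.04 relative to GAPDH). All 4 increases were lost relative to HPRT1. The calls of TNFRSF10A and FAS were weak. TNFRSF10A (edgeR adjusted p = 0.045) also lost its call with RLE or upper-quartile factors, in DESeq2 and with the replicate block. The same held without hESC library 1 or 3 or NMP-L library 2. FAS (edgeR adjusted p = 0.028) lost its call with the block and without hESC library 2 or 3 or NMP-L library 2 or 3. Both were scarce, with means of 1.98 and 2.96 CPM for TNFRSF10A and 6.72 and 9.33 CPM for FAS in hESCs and NMP-L cells. The more abundant receptor gene TNFRSF10B, the other gene that fell, went from a mean of 89.95 to 71.27 CPM. Its log2 fold change was −0.34 (edgeR adjusted p = 0.0038), turning to 0.22 relative to GAPDH.

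**Figure D5:**
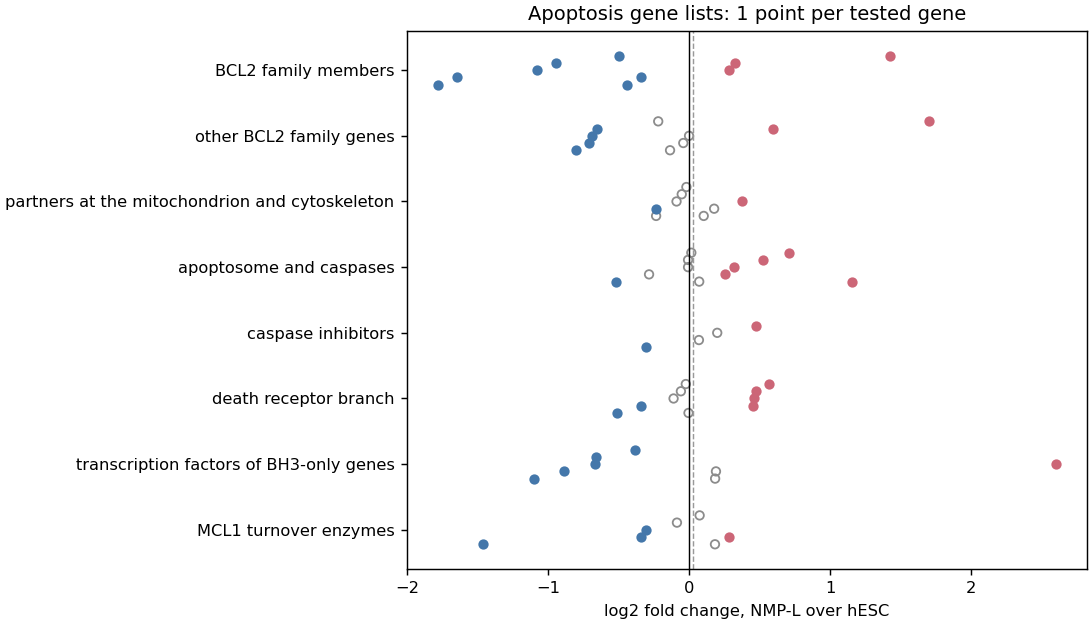
Log2 fold changes (NMP-L over hESC, edgeR) of the members and of the tested genes of 7 further apoptosis lists, with 1 point per gene, red where higher and blue where lower at an adjusted p under 0.05, open where not, and a dashed line at the median of all tested genes. Under this TMM scaling the apoptosome list holds 5 higher and 1 lower gene and the members 3 higher and 7 lower, and relative to GAPDH or HPRT1 the points of all lists shift together to the right or left.

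Of 8 tested transcription factors known to drive BH3-only genes, 5 were lower and 1 was higher, beside 26.7% and 29.1% of all tested genes, and relative to GAPDH 3 were higher and 0 lower. DDIT3, which encodes the stress factor CHOP, was the gene that rose, with 72, 104 and 78 counts in hESCs and 596, 614 and 592 in NMP-L cells (6.07-fold higher, log2 fold change 2.60, SE 0.15, edgeR adjusted p = 6.2e-08). RUNX3, JUN, E2F1 and TP73 had log2 fold changes of −1.10, −0.89, −0.67 and −0.66, calls that were lost relative to GAPDH.

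Among 7 enzymes that set the stability of the MCL1 protein, 3 were lower and 1 higher, beside 26.7% and 29.1% of all tested genes. The split depended on the scaling, with 4 higher and 1 lower relative to GAPDH and 0 higher and 3 lower relative to HPRT1. USP9X, a deubiquitinase that removes degradative ubiquitin from MCL1, fell alongside MCL1. It went from 2931 ± 386 to 1067 ± 46.6 CPM (SD, n = 3 each), 2.75-fold lower (log2 fold change −1.46, SE 0.09, edgeR adjusted p = 1.8e-07), and the call held under 17 of 17 alternatives. The ubiquitin ligase genes FBXW7 and HUWE1 had log2 fold changes of −0.34 and −0.30, turning to 0.23 and 0.25 relative to GAPDH. BTRC had 0.28, turning to −0.02 relative to HPRT1. The call of FBXW7 was also lost in limma on TPM and without hESC library 3 or NMP-L library 2. That of BTRC was also lost with the replicate block and without hESC library 2 or 3 or NMP-L library 2. Protein levels were not measured here.

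Promoters of members that moved in different directions are printed to show what their sequences hold. RefSeq promoter sequences (GRCh38.p14, the 250 bases before the annotated start) were found for 8 of the 10 members, not for MCL1 and BIK. Each window is written 5′ to 3′ on the strand of its gene, with CACGTG (the E-box) and TGACGT (the core of the cAMP response element) in capitals, the latter as ACGTCA where it lies on the opposite strand. Under the main scaling PMAIP1 (chr18:59899746-59899995, plus strand) had the largest fall, BAX (chr19:48954625-48954874, plus strand) fell and BAK1 (chr6:33580277-33580526, minus strand) rose, and BCL2 (chr18:63319770-63320019, minus strand) had the largest increase.
PMAIP1: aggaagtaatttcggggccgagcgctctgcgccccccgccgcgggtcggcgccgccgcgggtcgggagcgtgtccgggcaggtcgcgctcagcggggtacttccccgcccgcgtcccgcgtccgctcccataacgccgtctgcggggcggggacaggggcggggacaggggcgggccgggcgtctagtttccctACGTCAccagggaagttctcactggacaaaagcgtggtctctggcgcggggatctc
BAX: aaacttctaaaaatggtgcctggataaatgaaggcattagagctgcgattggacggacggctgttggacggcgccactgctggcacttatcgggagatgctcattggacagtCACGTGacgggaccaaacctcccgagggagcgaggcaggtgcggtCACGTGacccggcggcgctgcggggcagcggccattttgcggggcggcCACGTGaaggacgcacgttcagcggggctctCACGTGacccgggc
BAK1: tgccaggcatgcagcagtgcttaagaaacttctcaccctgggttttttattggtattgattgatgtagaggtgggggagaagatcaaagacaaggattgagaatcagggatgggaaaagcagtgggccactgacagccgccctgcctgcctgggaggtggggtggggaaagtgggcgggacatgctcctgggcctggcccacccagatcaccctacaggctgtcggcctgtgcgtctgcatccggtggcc
BCL2: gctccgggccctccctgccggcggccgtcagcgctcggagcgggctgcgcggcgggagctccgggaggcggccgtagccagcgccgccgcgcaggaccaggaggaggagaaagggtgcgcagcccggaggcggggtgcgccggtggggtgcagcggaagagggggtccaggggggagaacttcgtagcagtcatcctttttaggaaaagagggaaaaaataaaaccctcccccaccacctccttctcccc

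The search covered both strands and also included CCAAT, the GC box GGGCGG and TATAAA. The BAX window held 4 E-boxes, starting 138, 93, 45 and 14 bases before the start, where 6.34% of 35116 promoter windows of this length held at least 1 and 0.0142% held 4 or more. The PMAIP1 window held the cAMP response element core 56 bases before the start, a motif found in 7.1% of windows, and 4 GC boxes, a number reached by 7.63%. The BAX window also held 2 CCAAT motifs and 1 GC box. The BAK1 window held 1 CCAAT motif and 2 GC boxes, while none of the 5 motifs was in the BCL2 window. None of the printed windows held both capitalised motifs, so these do not overlap one another. BBC3 also had 1 E-box, and the cAMP response element core was in none of the other 7 members with a window. A match of letters is a description and not evidence of binding, and the absence of a match says nothing about the factor.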

How the data were processed

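RNA-seq libraries of polyadenylated RNA (KAPA mRNA HyperPrep, single-end reads of 76 bases, HiSeq 4000) from 3 hESC and 3 NMP-L samples of H9 cells were analysed. The deposited table held expected counts from RSEM, not normalised between libraries. The authors also gave TPM, scaled by transcript length, beside those deposited counts. The submitters' processing notes name cutadapt 1.9.1, STAR 2.5.2a, RSEM 1.3.0, DESeq2 1.12.3 and build hg19. The annotation and the strand setting are not given in the sources used here. RSEM divides reads that match several genes, which leaves fractional counts, and none of the 10 members had any.

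Expected counts were rounded and tested across all genes in R 4.3.3 with edgeR 4.0.16 (filterByExpr with a minimum count of 10, TMM, glmQLFit and glmQLFTest, Benjamini-Hochberg adjustment over 15517 genes, threshold 0.05). The standard error of an edgeR fit was taken as the absolute log2 fold change divided by the square root of the quasi-likelihood F statistic. CPM used TMM library sizes. The exact permutation test used log2(CPM + 0.1). Alternatives were RLE, upper-quartile and library-size scaling, scaling to GAPDH or HPRT1, other filters, DESeq2 1.42.0, limma 3.58.1 on log2(TPM + 0.1) and log2(TPM + 1), a replicate block, and leaving out each library. The fits were tested on simulated data. Floors cover counting error only.

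The members and gene lists were chosen with earlier results of these data known. Values are named for the 10 members, for other family genes past the threshold, and for up to 5 genes past the threshold with the largest change in each other list, beside marker genes and the 3 genes most correlated with PMAIP1. FOXA2, FGF17, FGF8, SOX17, AFP, FOXD3, SNAI2, TNFRSF10B and BAD were named after their values were seen. Some genes and 1 gene list of the original plan are not reported here, and the counts of the lists leave them out. Gene positions are from GENCODE 44 on GRCh37 and promoters from RefSeq.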

Additional observations from a re-analysis of the deposited data

How the results depend on the processing

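Over 17 alternatives and 10 members (170 values), 152 kept their direction and their side of the threshold, 14 lost the call and 4 turned direction. BCL2, MCL1, PMAIP1, BIK and BMF kept both under 17 of 17, although the log2 fold change of BCL2 shrank to 0.48 in limma on log2(TPM + 1). The 4 that turned were BCL2L11 (0.219), BBC3 (0.103) and BAX (0.0541) relative to GAPDH and BAK1 (−0.00413) relative to HPRT1. Members lower numbered 4 relative to GAPDH, and members higher numbered 1 relative to HPRT1. BAK1 also lost its call with RLE or upper-quartile factors and in DESeq2 (adjusted p = 0.055, 0.069 and 0.052).

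Genes called ranged from 7087 to 11455 over the alternatives and from 7255 to 8891 when single libraries were left out, where 2 to 3 members were higher and 6 to 7 lower. Libraries with the same number did not deviate together (correlations of −0.37, −0.06 and −0.13). With 3 libraries a group these correlations cannot show whether libraries of the same number were collected together, and the sources used here do not say. With the number as a replicate block, 7560 genes were called, with 2 members higher and 7 lower, and BAK1 was the member that lost its call (adjusted p = 0.071).

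The precision is limited by 3 libraries a group from 1 cell line. BCL2 and BIK, with at most 91 and 57 counts in a library, had the widest errors (SE 0.21 and 0.34 on the log2 scale).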
